A study of Homo sapiens with 2 samples.

Results

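The 34 genes described here are the 13 protein-coding genes of the human mitochondrial genome and 21 nuclear genes whose products replicate mitochondrial DNA, transcribe it, or process, stabilise and degrade its RNA. They were selected by name, with earlier results of these data in view, from the 12918 genes to which the listed transcripts could be assigned. All 34 were listed, and all 34 reached 1 FPKM (the number of fragments on a transcript, divided by its length in kilobases and by the mapped fragments in the library) in at least 1 library, as did 11046 genes in all. The data were RNA-seq libraries of MDA-MB-231, a line from a triple-negative breast cancer. In 1 library the cells had received a Smart Silencer (a reagent of pooled siRNAs and antisense oligonucleotides) against the long noncoding RNA THAP7-AS1, and in the other, also 1 library, they had received the negative control si-NC. RNA was collected after 48 h in each case. The study asked how the silencing alters the RNAs of these cells.

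The column for the THAP7-AS1 silencer library is headed si-v and was given to that library by elimination, so every direction below depends on that reading. None of the 3 annotated THAP7-AS1 transcripts was listed, and the silencing could not be followed. The values correspond to about 8320000 fragments on listed genes in the silencer library and 7830000 in the si-NC library. There was no replicate, so no test of the difference was possible, and the intervals given cover counting error only. The 7 genes used as markers of the line, among them VIM, CD44 and KRT18, lay between 83.7 and 373 FPKM in the silencer library and between 118 and 344 FPKM in the si-NC library. Of 10 leukocyte, fibroblast and endothelial markers, only LYZ and COL1A1 were listed, at no more than 2.98 FPKM. Of 4 genes fixed as markers expected to be low, ERBB2 stood at 17.4 FPKM in the silencer library and 4.65 FPKM in the si-NC library. ESR1 was listed at 0 in both libraries, and PGR was not listed. CDH1 stood at 0.122 FPKM in the silencer library and 0.0845 FPKM in the si-NC library. The sum of FPKM over all genes outside the mitochondrial genome was slightly higher in the silencer library (log2 0.07), and the median log2 ratio of all genes past the filter was 0.0037.

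Mitochondria keep a small circular genome that encodes core subunits of the respiratory chain and of ATP synthase, together with the ribosomal and transfer RNAs needed to translate them. A single-subunit RNA polymerase, POLRMT, transcribes each strand as a long precursor with the help of TFAM and TFB2M, and the mRNAs are released mainly by excision of the transfer RNAs that lie between them. The mRNAs are then tailed by MTPAP, held by the LRPPRC and SLIRP complex, and degraded by the PNPT1 and SUPV3L1 degradosome. Its products carry out oxidative phosphorylation.

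Most mRNAs of the mitochondrial genome carry little sequence beyond the open reading frame. Some end before the stop codon is complete, so that the tail added by MTPAP supplies the missing bases. In the GENCODE 29 transcripts (GRCh38, mitochondrial genome), 6 of the 13 ended in an incomplete codon and 7 in a complete one. The last 24 bases of 6 annotated transcripts are shown because they separate these classes. An annotated end need not be the end of the mRNA, as for MT-ND4L, which shares an mRNA with MT-ND4. The bases are written on the strand of the mRNA, and capitals mark the terminal codon or the part of it that the genome encodes.
MT-ND1: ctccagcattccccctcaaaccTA
MT-ND4: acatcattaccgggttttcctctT
MT-ND3: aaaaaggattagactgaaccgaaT
MT-ND4L: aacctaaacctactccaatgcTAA
MT-CO1: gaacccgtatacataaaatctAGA
MT-ND6: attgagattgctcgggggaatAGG

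MT-ND1 encodes 2 bases of its stop codon, and MT-ND4 and MT-ND3 encode 1 base. MT-ND4L has a complete TAA, and MT-CO1 and MT-ND6 end in AGA and AGG. The levels of these mRNAs are given below. The 6 annotated transcripts with an incomplete stop codon had log2 ratios (silencer over si-NC) from -0.94 to -0.42, with a median of -0.82. The 7 with a complete codon had ratios from -1.24 to -0.40, with a median of -0.78. The ranges of the classes overlapped over most of their width.

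Genes of the mitochondrial genome also overlap each other. MT-ND4L runs into MT-ND4, and MT-ATP8 into MT-ATP6, and each pair is carried on a bicistronic mRNA. The overlaps are shown because fragments on the shared bases cannot be assigned to either gene from these values. Capitals mark the bases that belong to both open reading frames.
MT-ND4L end: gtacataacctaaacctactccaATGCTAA
MT-ND4 start: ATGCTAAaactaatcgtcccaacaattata
MT-ATP8 end: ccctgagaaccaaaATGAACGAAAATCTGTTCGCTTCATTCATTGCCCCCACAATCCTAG
MT-ATP6 start: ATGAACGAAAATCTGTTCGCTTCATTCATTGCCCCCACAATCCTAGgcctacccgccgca

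The first overlap spans 7 bases, which is 2.36% of MT-ND4L and 0.508% of MT-ND4. The second spans 46 bases, which is 22.2% of MT-ATP8 and 6.75% of MT-ATP6. A further overlap, of 1 base, joins MT-ATP6 to MT-CO3. The effect of these shared bases on the levels was not tested.

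All 13 mitochondrial mRNAs had lower levels in the silencer library than in the si-NC library, and 11 of them were lower by 1.5-fold or more. Over all 11046 genes 8.91% were lower by that much. The median log2 ratio, computed as log2((silencer + 1)/(si-NC + 1)) on FPKM, was -0.78 over the 13 genes. As these genes are read from 2 precursors of 1 genome, they are not 13 separate observations. Added together they held 6.95% of the summed FPKM in the silencer library and 12.03% in the si-NC library. By fragments, which do not weigh short transcripts more, the shares were 2.60% (exact 95% binomial interval 2.59% to 2.61%) in the silencer library and 4.47% (4.45% to 4.48%) in the si-NC library. In bulk RNA a lower level per cell and fewer cells with the higher level cannot be told apart, nor can fewer mitochondrial genomes and less RNA from each. With 1 library per group, a difference between cultures or in library preparation cannot be told apart from an effect of the silencer.

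**Figure D1:**
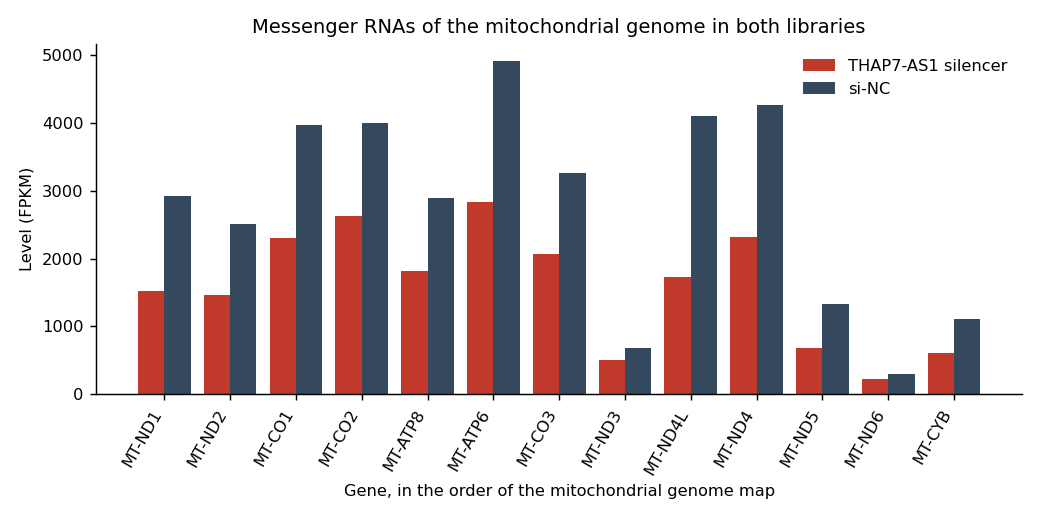
Levels of the 13 mitochondrial mRNAs (FPKM, linear axis from 0) in the silencer library (left bar of each pair) and the si-NC library (right bar), in map order, 1 library per bar. Every left bar is the shorter one, from MT-ND6 (228 FPKM in the silencer library, 301 in the si-NC library) to MT-ATP6 (2838 FPKM in the silencer library, 4913 in the si-NC library).

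The order of levels was largely shared by the libraries. MT-ATP6 was highest in both, and MT-ND6, MT-ND3 and MT-CYB were the lowest 3 in both. Across the 13 genes the log2 levels of the libraries had a Pearson correlation of 0.99 and a Spearman correlation of 0.92, a description over genes that share a precursor. MT-ND4L moved most in rank, to 7th in the silencer library from 3rd in the si-NC library. MT-CO2 was 2nd in the silencer library and 4th in the si-NC library.

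The 7 mitochondrial subunits of complex I, the NADH dehydrogenase that feeds electrons into the chain, showed both the largest and the smallest differences of the genome. Summed, they stood at 40.8% of the mitochondrial FPKM in the silencer library and 44.4% in the si-NC library. MT-ND1, a membrane subunit, stood at 1523 FPKM in the silencer library against 2916 in the si-NC library (log2 -0.94, 95% counting interval on fragments without a pseudocount -0.96 to -0.91). MT-ND5, an antiporter-like subunit, stood at 680.0 FPKM in the silencer library and 1326 in the si-NC library (-0.96, interval -0.99 to -0.93). These values make MT-ND1 and MT-ND5 close in ratio, with overlapping intervals, although their positions on the map are far apart.

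MT-ND2, a further antiporter-like subunit, stood at 1460.4 FPKM in the silencer library and 2504 in the si-NC library (-0.78). MT-ND4, also antiporter-like, stood at 2317 FPKM in the silencer library and 4255 in the si-NC library (-0.88, interval -0.90 to -0.86). MT-ND4L, the smallest complex I subunit of the genome, stood at 1728 FPKM in the silencer library and 4093 in the si-NC library (-1.24, interval -1.29 to -1.20), and was the only one of the 13 that was lower by 2-fold or more. Over all genes 2.49% were lower by 2-fold.

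MT-ND3 and MT-ND6 were the 2 genes that did not reach 1.5-fold. MT-ND3 stood at 506 FPKM in the silencer library and 676 in the si-NC library (-0.42, interval -0.50 to -0.33). MT-ND6, the only mRNA read from the opposite strand, stood at 228 FPKM in the silencer library and 301 in the si-NC library (-0.40, interval -0.51 to -0.30). The intervals of the pair overlapped each other and lay above those of the other 11 genes. MT-ND6 lies opposite precursor RNA of the other strand, and as the strand setting of the counting is not given, its reads and antisense reads cannot be told apart.

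MT-CYB encodes cytochrome b, the only mitochondrially encoded subunit of complex III. It stood at 606 FPKM in the silencer library and 1108 in the si-NC library (-0.87, interval -0.91 to -0.83). Its ratio was close to that of MT-ND4, with overlapping intervals.

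The 3 mitochondrial subunits of complex IV, cytochrome c oxidase, were all lower by 1.5-fold or more, with a median log2 ratio of -0.65, except that MT-CO2 lay just inside 1.5-fold with the trend in GC content removed. MT-CO1, which holds the oxygen-reducing centre, stood at 2301 FPKM in the silencer library and 3962 in the si-NC library (-0.78, interval -0.80 to -0.77). MT-CO2, which receives electrons from cytochrome c, stood at 2622 FPKM in the silencer library and 3990.4 in the si-NC library (-0.61, interval -0.63 to -0.58). MT-CO3 stood at 2072 FPKM in the silencer library and 3260.3 in the si-NC library (-0.65, interval -0.68 to -0.63). The counting interval of MT-CO2 reached past the 1.5-fold line. As a share of mitochondrial FPKM, complex IV stood at 33.8% in the silencer library and 31.0% in the si-NC library.

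For ATP synthase, MT-ATP6, a subunit of the proton channel, stood at 2838 FPKM in the silencer library and 4913 in the si-NC library (-0.79, interval -0.82 to -0.77). MT-ATP8, a short accessory subunit, stood at 1819.5 FPKM in the silencer library and 2898 in the si-NC library (-0.67, interval -0.73 to -0.62). Although carried on 1 mRNA, the pair did not have overlapping intervals. The level of MT-ATP8 relative to MT-ATP6 was 0.641 in the silencer library and 0.590 in the si-NC library. For the other bicistronic pair, the level of MT-ND4L relative to MT-ND4 was 0.746 in the silencer library and 0.962 in the si-NC library, a difference of log2 -0.37 between the ratios of the genes.

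**Figure D2:**
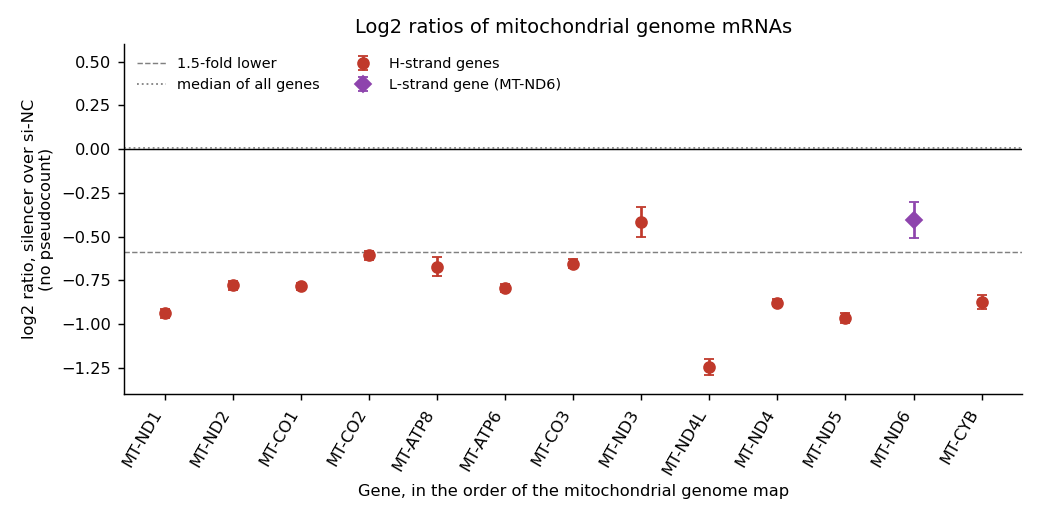
Log2 ratios (silencer over si-NC, no pseudocount) of the 13 mitochondrial mRNAs in map order; circles are the 12 genes of the H-strand transcript, the diamond is MT-ND6, bars are 95% counting intervals within these libraries, and the dotted line is the median of all genes. Every point lies below 0, MT-ND3 and MT-ND6 lie above the dashed 1.5-fold line, and MT-ND4L lies lowest at -1.24.

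Along the map the 12 H-strand genes had no steady trend, with a Pearson correlation of -0.23 and a Spearman correlation of -0.31 between map order and log2 ratio. The neighbours MT-ND3 and MT-ND4L, separated by a single transfer RNA gene, had the smallest and the largest difference of these 12. Across all 13 genes the log2 ratio had a Pearson correlation of -0.34 with GC content and of -0.54 with the si-NC level. The si-NC level enters the ratio, and the points share the libraries, so these are descriptions without a test.

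Nuclear genes of high level and of like base composition were set beside the mitochondrial mRNAs. The 72 nuclear genes that in both libraries reached the level of the lowest mitochondrial mRNA had median levels of 509.6 FPKM in the silencer library and 452.7 FPKM in the si-NC library. The medians of the 13 mitochondrial mRNAs were higher, at 1728 FPKM in the silencer library and 2916 FPKM in the si-NC library. These 72 genes had a median log2 ratio of 0.15, and 3 of them (4.17%) were lower by 1.5-fold. The 3688 nuclear genes within the GC range of the mitochondrial mRNAs (39.6% to 47.7%) had a median of -0.09, and 331 of them (8.98%) were lower by 1.5-fold. With the trend of the ratios with GC content removed, the mitochondrial median was -0.72 and 9 of the 13 genes were lower by 1.5-fold, as MT-ATP8 (-0.50) and MT-CO2 (-0.583) then lay inside it. GAPDH, a high-level reference gene, stood at 219 FPKM in the silencer library and 313 in the si-NC library (-0.51), and ACTB at 93.9 FPKM in the silencer library and 96.1 in the si-NC library (-0.03).

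The 21 nuclear genes of the mitochondrial expression machinery did not share the direction of the mRNAs they serve. Of these, 12 were above and 9 below a log2 ratio of 0, with a median of 0.13. SLIRP, POLG2 and TOP1MT were higher by 1.5-fold or more in the silencer library, and none was lower by that much. They made up 14.3% of the 21, and over all genes 9.82% were higher by 1.5-fold. With 1 FPKM added to each value, none of the 34 genes was higher by 2-fold, as were 2.37% of all genes. Without that addition POLG2, a low gene, was 2.18 times as high in the silencer library as in the si-NC library. Their median level was 10.6 FPKM in the silencer library and 8.77 FPKM in the si-NC library, far below the mitochondrial mRNAs.

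**Figure D3:**
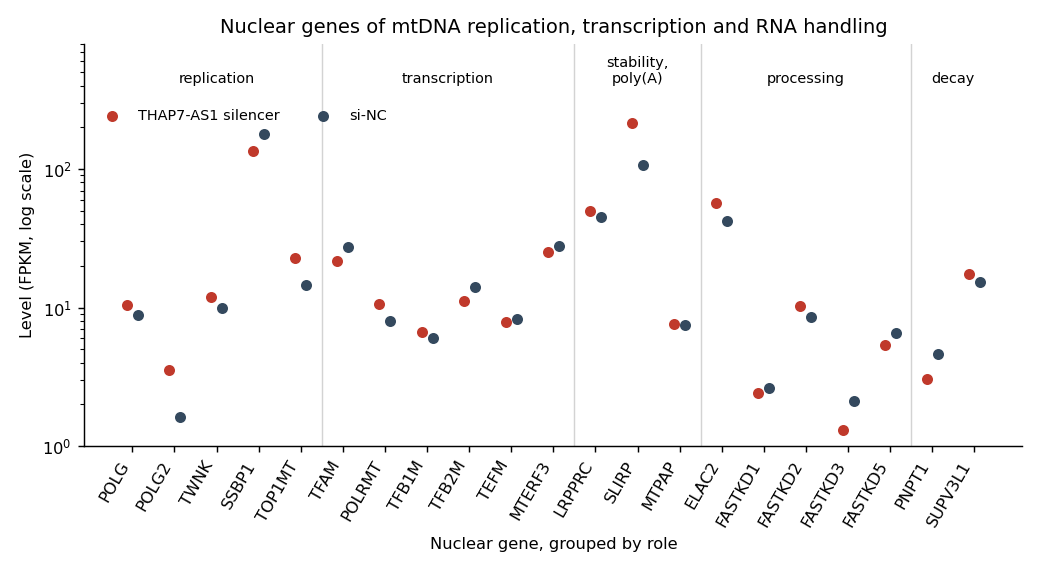
Levels of the 21 nuclear genes (FPKM, log axis) grouped by role, with the silencer library as the left point and the si-NC library as the right point of each gene, 1 library per point. SLIRP and SSBP1 stand above 100 FPKM in both libraries, and most other genes lie below 30 FPKM.

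Among the genes of DNA replication, POLG, the catalytic subunit of the mitochondrial DNA polymerase, stood at 10.5 FPKM in the silencer library and 8.77 in the si-NC library (log2 0.23). POLG2, its processivity subunit, stood at 3.54 FPKM in the silencer library and 1.62 in the si-NC library (0.79). POLG2 was the lowest of the 21 genes in the si-NC library and rested on 57 fragments in the silencer library and 28 in the si-NC library, which gave a wide interval of 0.23 to 1.62. It was inside 1.5-fold on its most abundant transcript (0.51) and at a pseudocount of 5 FPKM (0.37). On fragments the ratio of POLG2 was 0.92 without a pseudocount. It was 0.55, inside 1.5-fold, with a constant added to the fragments of each gene. TWNK, the replicative helicase, stood at 11.9 FPKM in the silencer library and 9.98 in the si-NC library (0.23).

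SSBP1, which coats single-stranded mitochondrial DNA, was the member of this group on the other side of 0, at 135 FPKM in the silencer library and 179 in the si-NC library (-0.40, interval -0.55 to -0.31). TOP1MT, the mitochondrial type I topoisomerase, stood at 22.8 FPKM in the silencer library and 14.5 in the si-NC library (0.62, interval 0.46 to 0.87). Both of its main transcripts were higher, TOP1MT-218 at 15.1 FPKM in the silencer library and 8.91 in the si-NC library, and TOP1MT-201 at 7.10 FPKM in the silencer library and 5.10 in the si-NC library. With the sum of nuclear FPKM made equal the ratio of TOP1MT was 0.56, and with the GC trend removed 0.45, both short of 1.5-fold.

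None of the 6 transcription genes differed by 1.5-fold. TFAM, which packages mitochondrial DNA and activates its promoters, stood at 21.8 FPKM in the silencer library and 27.6 in the si-NC library (-0.32). Its longest listed transcript, TFAM-204 (5414 bases), stood at 13.7 FPKM in the silencer library and 19.9 in the si-NC library, and TFAM-201 (973 bases) at 7.87 FPKM in the silencer library and 7.28 in the si-NC library. The difference of TFAM thus lay in the long transcript. On fragments, where TFAM-204 weighs more, the ratio of the gene was -0.49 (interval -0.61 to -0.37).

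POLRMT, the RNA polymerase, stood at 10.6 FPKM in the silencer library and 7.97 in the si-NC library (0.38, interval 0.17 to 0.58), opposite in direction to the mRNAs it transcribes. It has the highest GC content of the 21 genes, 66.3%, and with the GC trend removed its ratio was 0.08. TFB2M, its partner in promoter opening, stood at 11.1 FPKM in the silencer library and 14.0 in the si-NC library (-0.31, interval -0.58 to -0.08). TFB1M, a methyltransferase of the small mitochondrial ribosomal RNA, stood at 6.68 FPKM in the silencer library and 6.02 in the si-NC library (0.13).

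TEFM, the elongation factor that also lets the polymerase pass the replication switch, stood at 7.83 FPKM in the silencer library and 8.21 in the si-NC library (-0.06). MTERF3, reported as a repressor of mitochondrial transcription in mice, stood at 25.2 FPKM in the silencer library and 27.6 in the si-NC library (-0.13). The counting intervals of TFB1M, TEFM and MTERF3 included no difference.

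Among the genes of RNA stability and tailing, LRPPRC, an RNA-binding protein that stabilises mitochondrial mRNAs, was close in level, at 49.95 FPKM in the silencer library and 45.3 in the si-NC library (0.14). Its main transcript LRPPRC-201 stood at 42.9 FPKM in the silencer library and 43.4 in the si-NC library. SLIRP, its binding partner, had the highest ratio of the 34 genes, at 214 FPKM in the silencer library and 107 in the si-NC library (0.99). MTPAP, the poly(A) polymerase, stood at 7.63 FPKM in the silencer library and 7.48 in the si-NC library (0.02), and on fragments its ratio was -0.15 (interval -0.35 to 0.06).

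The ratio of SLIRP depended on how its reads were divided among 7 short, overlapping transcripts. SLIRP-201 stood at 110.3 FPKM in the silencer library and 6.58 in the si-NC library, while SLIRP-211 stood at 0.164 FPKM in the silencer library and 26.02 in the si-NC library. SLIRP-209, the most abundant over both libraries, stood at 92.5 FPKM in the silencer library and 67.7 in the si-NC library (0.45). Summed as fragments, the gene held 1037 in the silencer library and 625 in the si-NC library, a log2 ratio of 0.62 (interval 0.47 to 0.76). The gene was therefore higher on each scale, by amounts on either side of 1.5-fold.

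**Figure D4:**
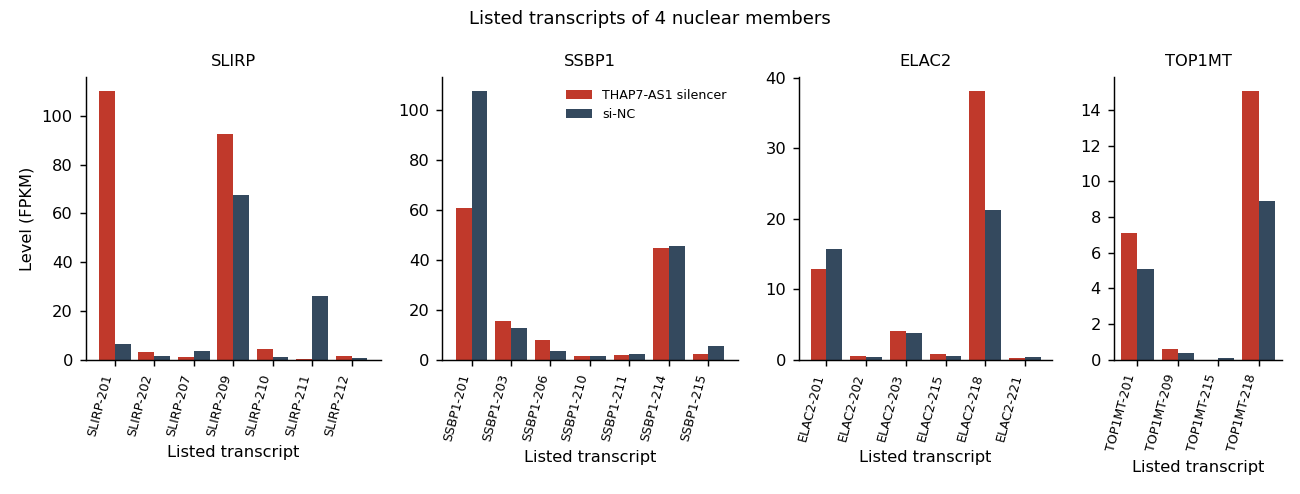
Levels (FPKM, linear axes from 0, a separate axis for each gene) of the listed transcripts of SLIRP, SSBP1, ELAC2 and TOP1MT in the silencer library (left bars) and the si-NC library (right bars). SLIRP-201 and SLIRP-211 lie in opposite directions, and in SSBP1 the difference sits mainly in SSBP1-201, at 60.7 FPKM in the silencer library and 107.8 in the si-NC library.

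In SSBP1, SSBP1-201 stood at 60.7 FPKM in the silencer library and 107.8 in the si-NC library (-0.82), and SSBP1-214 at 44.9 FPKM in the silencer library and 45.4 in the si-NC library. The other 5 listed SSBP1 transcripts lay between 1.54 and 15.7 FPKM in the silencer library and between 1.42 and 12.6 FPKM in the si-NC library. Read from SSBP1-201 alone, the gene was lower by more than 1.5-fold, and on summed transcripts it was not.

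Among the processing genes, ELAC2, the nuclease that cuts the 3′ ends of transfer RNAs out of the precursor, stood at 56.8 FPKM in the silencer library and 42.1 in the si-NC library (0.42, fragment interval 0.23 to 0.45). ELAC2-218 stood at 38.2 FPKM in the silencer library and 21.2 in the si-NC library (0.82), and ELAC2-201 at 12.9 FPKM in the silencer library and 15.7 in the si-NC library (-0.26). The transcripts of ELAC2 thus lay on both sides of 0.

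The FASTK-domain proteins act on particular mitochondrial RNAs. FASTKD2, which is needed for the large ribosomal RNA and MT-ND6 RNA, stood at 10.2 FPKM in the silencer library and 8.60 in the si-NC library (0.22). FASTKD5, which acts at mRNA ends that no transfer RNA flanks, stood at 5.33 FPKM in the silencer library and 6.60 in the si-NC library (-0.26, interval -0.60 to -0.01). FASTKD1 stood at 2.41 FPKM in the silencer library and 2.64 in the si-NC library (-0.09), and FASTKD3 at 1.30 FPKM in the silencer library and 2.11 in the si-NC library (-0.43). FASTKD1 and FASTKD3 rested on at most 73 fragments per library, and their intervals, -0.41 to 0.61 and -1.01 to 0.34, included no difference.

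Single transcripts of FASTKD2 and FASTKD1 differed more than their genes. FASTKD2-202 stood at 7.01 FPKM in the silencer library and 3.56 in the si-NC library (0.81), while FASTKD2-203 was listed at 0 in the silencer library and at 1.60 FPKM in the si-NC library. FASTKD1-204 stood at 1.44 FPKM in the silencer library and 0.359 in the si-NC library (0.85), and FASTKD1-205 at 0.426 FPKM in the silencer library and 1.13 in the si-NC library. In each gene these transcripts lay in opposite directions.

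The subunits of the degradosome lay on different sides of 0. PNPT1, the exoribonuclease, stood at 3.04 FPKM in the silencer library and 4.61 in the si-NC library (-0.47, interval -0.78 to -0.14). SUPV3L1, the helicase that works with it, stood at 17.4 FPKM in the silencer library and 15.4 in the si-NC library (0.17, interval -0.04 to 0.35). PNPT1 was the lowest ratio among the 21 nuclear genes, and with a pseudocount of 0.1 it reached -0.59 and FASTKD3 reached -0.66, both past 1.5-fold.

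**Figure D5:**
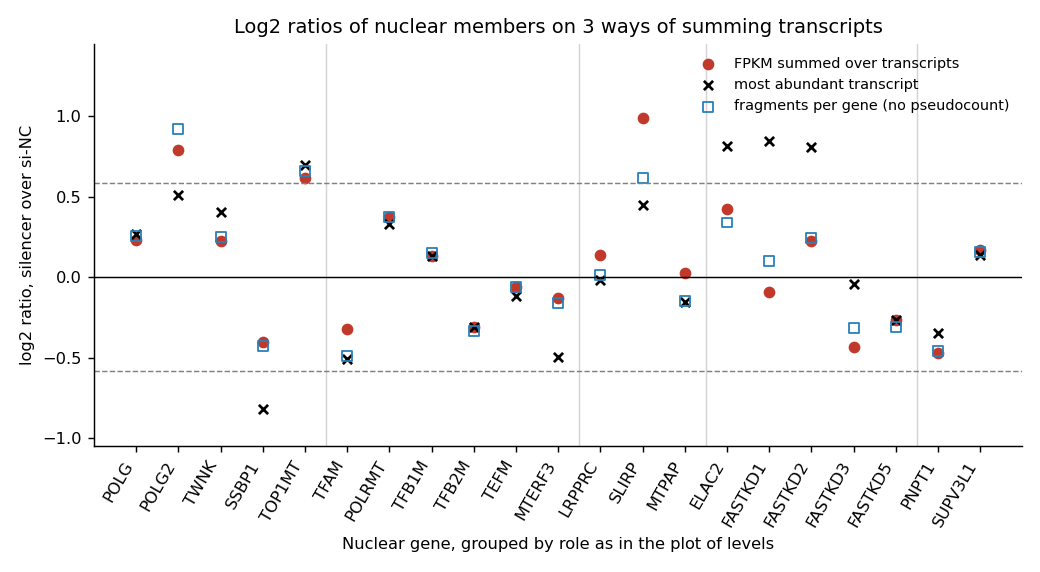
Log2 ratios (silencer over si-NC) of the 21 nuclear genes from FPKM summed over transcripts (filled circles, pseudocount of 1), from the most abundant transcript alone (crosses, pseudocount of 1) and from fragments per gene without a pseudocount (open squares); dashed lines mark 1.5-fold. The readings nearly coincide for genes with 1 transcript, such as TFB2M, and spread for SLIRP, FASTKD1, FASTKD2, ELAC2 and SSBP1.

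Promoters of the nuclear genes were searched because NRF1 and the ETS factor GABP are known regulators of several of them. RefSeq windows (GRCh38.p14, 250 bases before to 50 after the start) were found for 17 of the 21 genes, and TWNK, TOP1MT, MTERF3 and FASTKD5 were not among them. The NRF1 consensus, searched as GCGCA followed by any base and GCGC and read on both strands, was found in 4 of the 17 genes (TFAM, POLRMT, TFB1M and POLG2), in 14.2% of the 8875 genes past the filter that had a window, and in 5.78% of all 35116 windows. The ETS core CCGGAAG, read on both strands, was found in 7 of the 17 (POLG2, SSBP1, POLRMT, TFB1M, TEFM, SLIRP and ELAC2), in 24.2% of those 8875 genes, and in 10.3% of all windows. A match of one motif could share no more than its end base with a match of the other. One window each is shown for TFAM, which activates mitochondrial transcription, and SLIRP, which had the highest ratio of the 34 genes, with the match in capitals.
TFAM: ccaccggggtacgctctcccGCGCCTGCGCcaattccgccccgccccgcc
SLIRP: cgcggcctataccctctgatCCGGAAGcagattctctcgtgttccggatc

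The TFAM window is chr10:58385327-58385376 on the plus strand, and its NRF1 match starts 63 bases before the transcript start. The SLIRP window is chr14:77708007-77708056 on the plus strand, and its ETS match starts 44 or 76 bases before the start, depending on which of 2 annotated starts is used. The 4 genes with an NRF1 match had log2 ratios on both sides of 0, from -0.32 for TFAM to 0.79 for POLG2. NRF1 itself stood at 6.83 FPKM in the silencer library and 6.34 in the si-NC library (0.09), and GABPA, the DNA-binding subunit of GABP, at 6.84 FPKM in the silencer library and 7.12 in the si-NC library (-0.05). A match is a description of the letters and not of binding.

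Other genes of mitochondrial gene expression were followed in lists, whose counts stand beside the 9.82% of all genes that were higher and the 8.91% that were lower by 1.5-fold. Of 31 further genes of RNA processing and modification past the filter, 4 (12.9%) were higher and 1 (3.23%) was lower by 1.5-fold, with a median log2 ratio of 0.28. MTO1, which modifies transfer RNAs, stood at 5.57 FPKM in the silencer library and 2.28 in the si-NC library (1.0004), though on fragments the interval was 0.11 to 0.63. TRMU, which adds sulfur to transfer RNAs, stood at 3.34 FPKM in the silencer library and 1.31 in the si-NC library (0.91). It rested on 61 fragments in the silencer library and 28 in the si-NC library (interval 0.34 to 1.71). TRNT1, which adds the CCA end to transfer RNAs, stood at 5.78 FPKM in the silencer library and 9.80 in the si-NC library (-0.67). MTERF4, which targets the ribosomal RNA methyltransferase NSUN4, stood at 5.60 FPKM in the silencer library and 8.31 in the si-NC library (-0.50).

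Of 18 genes of DNA maintenance and nucleotide supply, 1 (5.56%) was higher and 2 (11.1%) were lower, beside 9.82% and 8.91% of all genes, with a median of 0.10. LONP1, the matrix protease that degrades unbound TFAM, stood at 35.8 FPKM in the silencer library and 19.2 in the si-NC library (0.87, interval 0.72 to 1.01). ATAD3B, an inner membrane protein, stood at 11.1 FPKM in the silencer library and 7.09 in the si-NC library (0.58). RRM2B, a ribonucleotide reductase subunit that supplies nucleotides outside S phase, stood at 7.61 FPKM in the silencer library and 13.3 in the si-NC library (-0.73). Its fragment interval, -0.54 to -0.13, lay inside 1.5-fold. EXOG, a mitochondrial nuclease, stood at 1.42 FPKM in the silencer library and 2.93 in the si-NC library (-0.70). It rested on 32 fragments in the silencer library and 53 in the si-NC library (interval -1.52 to -0.18).

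Of 17 genes listed as mitochondrial translation factors, 1 (5.88%) was higher and 2 (11.8%) were lower, beside 9.82% and 8.91% of all genes, with a median of -0.14. The higher one, LETM1, at 33.7 FPKM in the silencer library and 20.4 in the si-NC library (0.69), is known for ion exchange across the inner membrane and not as a translation factor. TSFM, an elongation factor, stood at 13.1 FPKM in the silencer library and 9.36 in the si-NC library (0.44, fragment interval -0.30 to 0.27). The lower ones were MTIF3, an initiation factor, at 5.36 FPKM in the silencer library and 10.2 in the si-NC library (-0.82), and GFM2, a ribosome recycling factor, at 14.5 FPKM in the silencer library and 22.9 in the si-NC library (-0.63).

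Of 15 regulators of mitochondrial biogenesis, 2 (13.3%) were higher and 1 (6.67%) was lower, beside 9.82% and 8.91% of all genes, with a median of -0.05. ESRRA, a nuclear receptor that activates respiratory genes, stood at 11.0 FPKM in the silencer library and 6.16 in the si-NC library (0.75). PPRC1, a coactivator of the PGC-1 family, stood at 19.8 FPKM in the silencer library and 12.9 in the si-NC library (0.59). GABPB1, the activating subunit of GABP, stood at 9.29 FPKM in the silencer library and 17.4 in the si-NC library (-0.84, fragment interval -0.69 to -0.23). YY1 stood at 16.1 FPKM in the silencer library and 24.6 in the si-NC library (-0.58), but its fragment interval of -0.12 to 0.11 included no difference. PPARA was not counted as lower, at 2.18 FPKM in the silencer library and 3.04 in the si-NC library (-0.35). Its fragment interval, -1.85 to -1.24, lay wholly past 1.5-fold, so the counts depend on how transcripts are summed.

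Of 15 genes listed under the mitochondrial stress response, 3 (20%) were higher by 1.5-fold and none was lower, beside 9.82% and 8.91% of all genes. The higher ones were DDIT3, ASNS and LONP1, and the median of the 15 was 0.12. Whether these values reflect mitochondrial stress was not tested. LONP1 is also in the list of DNA maintenance genes. ATF4 was not counted as higher, at 95.0 FPKM in the silencer library and 63.9 in the si-NC library (0.57). Its fragment interval, 0.66 to 0.87, lay wholly past 1.5-fold. DDIT3, a stress transcription factor, stood at 13.7 FPKM in the silencer library and 1.99 in the si-NC library (2.30, fragment interval 2.06 to 3.45), and ASNS, asparagine synthetase, at 17.6 FPKM in the silencer library and 6.89 in the si-NC library (1.24). The matrix chaperonin gene HSPE1 stood at 63.8 FPKM in the silencer library and 87.6 in the si-NC library (-0.45), and the matrix protease gene CLPP at 31.3 FPKM in the silencer library and 37.9 in the si-NC library (-0.27).

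Of 8 mitophagy genes, 1 (12.5%) was higher and 1 (12.5%) was lower, beside 9.82% and 8.91% of all genes, with a median of 0.06. SQSTM1, an autophagy adaptor, stood at 194 FPKM in the silencer library and 123 in the si-NC library (0.65), and PHB2, an inner membrane mitophagy receptor, at 67.8 FPKM in the silencer library and 50.3 in the si-NC library (0.42). The outer membrane receptor BNIP3L stood at 15.8 FPKM in the silencer library and 24.3 in the si-NC library (-0.59). CALCOCO2, a further adaptor, stood at 63.2 FPKM in the silencer library and 92.3 in the si-NC library (-0.54, fragment interval -0.05 to 0.18).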

How the data were processed

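The authors' deposited table gives 1 value per transcript and library, taken here as FPKM, the unit that StringTie puts out, since no header names one. Per the submitters' processing notes, cutadapt, HISAT2 2.0.5 and StringTie were used on hg19. Not given in the sources used here: the annotation release, the strand setting, the RNA selection and any filter. Transcript IDs were matched without version to GENCODE 29 (GRCh38, used for names, lengths, GC content and sequences); 39426 of 39605 matched. FPKM was summed per gene. The log2 ratio used a pseudocount of 1 FPKM, which understates differences of low genes. The fold threshold was 1.5. No test was made, with 1 library per group.

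Fragments are FPKM times length divided by the most frequent low value of genes with 1 listed transcript, 84.1 in the silencer library and 91.2 in the si-NC library. They are approximate. Intervals are exact Clopper-Pearson at 95% on fragments without a pseudocount and leave out how reads were divided among transcripts and the spread between cultures. Nuclear pseudogenes of mitochondrial genes could share reads. Of the 394 annotated, 0 were listed, but only 2 pseudogene transcripts of any kind were listed. Their absence is therefore no measure of their level. No mitochondrial ribosomal or transfer RNA gene was listed.

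Members and lists were chosen with earlier results of these data known. Named genes were all members, the 2 highest and 2 lowest of each further list, ACTB and GAPDH. NRF1, GABPA, PPARA, ATF4 and the transcripts named were chosen after their values were seen. Alternatives were other pseudocounts, filters and scalings, the most abundant transcript, fragments per gene and, added after the data were seen, removal of the GC trend in 20 bins. The steps were tested on simulated data. Python 3.11.15, pandas 2.3.3 and scipy 1.17.1 were used.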

Additional observations from a re-analysis of the deposited data

How the results depend on the processing

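No alternative changed the sign of a mitochondrial mRNA: all 13 stayed below 0 under the 7 alternatives run per gene, with 11 lower by 1.5-fold under 6 of them and 9 with the GC trend removed, MT-ATP8 and MT-CO2 dropping out. Their median was -0.85 when scaled to the summed FPKM of genes outside the mitochondrial genome and -0.72 with the GC trend removed, against -0.78. The median of the 21 nuclear genes was 0.084 with a pseudocount of 5, 0.072 when scaled to the summed nuclear FPKM and 0.072 on fragments per gene, against 0.13. The number of nuclear genes higher by 1.5-fold was 3, with 4 for the most abundant transcript and 1 with a pseudocount of 5. It was 2 on fragments per gene, 2 scaled to the summed nuclear FPKM and 2 with the GC trend removed. In this count and in the median, fragments per gene had a constant added for each gene. Without a constant, POLG2 (0.92), TOP1MT (0.66) and SLIRP (0.62) were past 1.5-fold on fragments. Of the nuclear genes 0 were lower, with 2 at a pseudocount of 0.1 and 1 for the most abundant transcript. Between 0 and 3 of the 21 changed sign in these settings, none of them among the 3 called. The mitochondrial share was 2.60% of fragments in the silencer library and 4.47% in the si-NC library, against 6.95% and 12.03% of FPKM, since fragments weigh short transcripts less. Over all genes 1085 were higher and 984 lower, with 453 higher and 391 lower at a pseudocount of 5, 1451 higher and 1328 lower at a pseudocount of 0.1, and 1529 higher and 1548 lower for the most abundant transcript. Apart from these values, the cause of these shifts was not tested. The counts of the further lists were not repeated under these settings. No paired analysis was possible because each group has 1 library. Leaving out a library was not possible for the same reason. Precision depends on the fragments behind a gene and so on its length as well as its FPKM; FASTKD3 rests on 37 fragments in the silencer library and 43 in the si-NC library.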
